A study of Homo sapiens with 12 samples.

Results

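The heat shock proteins and chaperones examined here were a list of 45 human genes, comprising heat shock factors, the HSP70, HSP110 and HSP90 families, their co-chaperones, subunits of the chaperonins and small heat shock proteins. A gene was found on the array through the RefSeq accession of its probe, and 44 of the 45 genes had a probe, among 16557 genes that could be named in this way. HSPA1B had none. The 44 genes had 74 probes, of which 71 probes of 41 genes were bright enough to be tested, 8 of them with 1 of the 12 arrays missing through an outlier flag. Most of these proteins work in the cytosol, but HSPA9, HSPD1, HSPE1, TRAP1 and DNAJA3 are mitochondrial, HSPA13 is microsomal, and HSPB11 (IFT25 in the gene table) belongs to the transport complex of cilia.

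RNA came from the H358/Tet-On/SRSF2 clone, 1 clone of the H358 human lung adenocarcinoma cell line that carries the splicing factor SRSF2 under a Tet-responsive promoter. The 6 arrays labelled SRSF2 over-expression, called SRSF2-labelled below, held RNA of cells given doxycycline at 1 µg/mL for 24 hours, and the 6 control arrays held RNA at 24 hours with the treatment labelled none. Whether doxycycline itself changes these genes cannot be told apart from the transgene, since no cells without the transgene received it here. The comparison asks which transcripts change in amount when SRSF2 is induced. Signals are given on a log2 scale relative to each array's 75th percentile, so that 0 is the signal of the probe at that percentile, and a log2 fold change is the mean of the 6 SRSF2-labelled arrays minus the mean of the 6 control arrays.

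The SRSF2 probe went against the labels. Its signal was 3.74 to 4.03 in the control condition but only 2.29 to 2.56 in the SRSF2-labelled one, a log2 fold change of -1.46 ± 0.063 (SE, n = 6 and 6, limma adjusted p = 1.68e-09, exact two-sided permutation p = 0.00216, the smallest that 924 arrangements can give). Whether this probe reads the transcript of the transgene is not given in the sources used here, so the labels are used as names throughout. The study also assayed SRSF2 by quantitative RT-PCR and western blotting, which were not used here. The 12 arrays lay on 3 slides with 2 arrays of each condition on each, and between 54.2% and 68.0% of their spots were well above background. By the study's description, the 6 arrays of a condition came from 3 labelling reactions with 2 arrays each, and nothing says that the RNA came from separate cultures, so the p-values measure a spread that is in part technical. All 7 epithelial markers listed for the cell line were well above background on every array, and both fibroblast markers with a probe were on none. Of the other markers, PECAM1 and CD14 were above it on every array, 1 of 2 CD3E probes on 10 arrays, and CDH5 and PTPRC on none. Among the epithelial markers KRT7 fell by 1.32, KRT19 by 0.50 and MUC1 by 0.44 on the log2 scale, EPCAM rose by 0.21 and KRT8 rose by 0.18 at 1 of 2 probes, while KRT18 and CDH1 did not pass. PECAM1 fell by 0.46 and CD14 did not pass. The part of these markers in the results was not tested.

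Chaperones bind unfolded or partly folded proteins and help them to fold, to assemble or to be handed on for degradation. HSP70 proteins are driven by J-domain proteins, which start ATP hydrolysis, and by nucleotide exchange factors such as the HSP110 and BAG proteins, which release the client, while HSP90 completes the folding of kinases and steroid receptors with its own set of co-chaperones. When proteins unfold, the transcription factor HSF1 binds heat shock elements, inverted repeats of the unit GAA, in the promoters of many of these genes and raises their transcription. Tumour cells often depend on this system.

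Of the 71 probes tested, 45 had a limma adjusted p no higher than 0.05, the threshold used here, and 27 of them were higher and 18 lower on the SRSF2-labelled arrays. That is 63.4% of these probes, beside 57.7% of all 24331 probes tested (29.7% higher and 28.0% lower), so passing the threshold did not set the chaperones apart from other genes. With the brightest probe standing for each gene, 16 of 41 genes rose and 12 fell, beside 60.7% of all 11592 genes past the threshold (30.5% higher and 30.2% lower). When both arrays that a condition had on each slide were averaged, leaving 3 values against 3, 27 of the 71 probes passed (17 higher and 10 lower), beside 39.0% of all probes (19.8% higher and 19.2% lower). Such changes are per unit of RNA in bulk samples, where fewer cells with a transcript and less transcript per cell cannot be told apart.

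The changes were small. The median log2 fold change was 0.083 over the chaperone probes and 0.011 over all probes, and the median size without regard to sign was 0.257 and 0.303. A change of at least 1.5-fold that also passed the threshold was found for 14 of the 71 probes, 9 higher and 5 lower, beside 23.0% of all probes (11.7% higher and 11.3% lower). At 2-fold, 3 of 71 remained, beside 7.00% of all probes: HSPA14 and DNAJA3, which fell, and 1 probe of DNAJB4, which rose. The 6 arrays of each condition did not overlap at all for 35 of the 71 probes, 21 of them higher and 14 lower, beside 40.2% of all probes (21.2% higher and 18.9% lower).

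**Figure D1:**
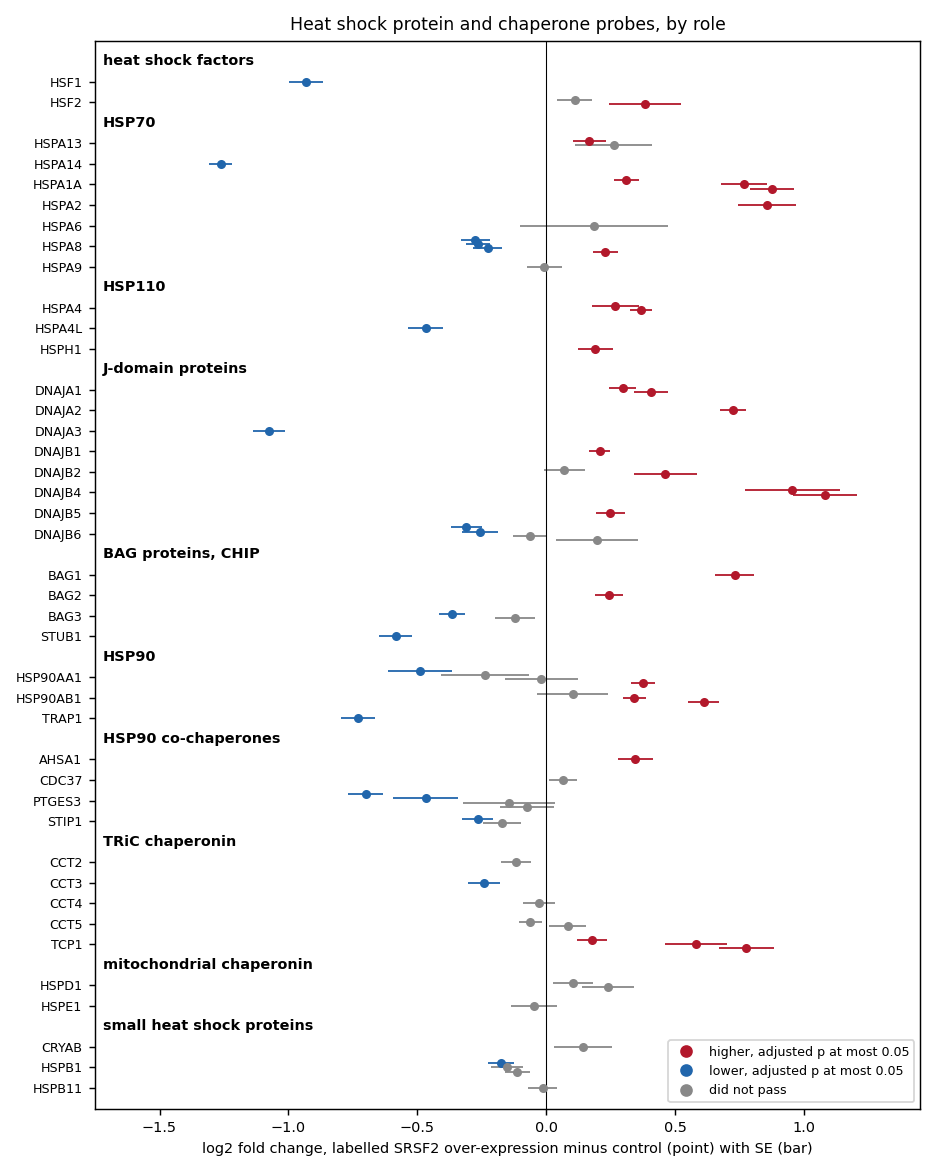
The log2 fold change (x axis, SRSF2-labelled minus control, n = 6 and 6 arrays) of each of the 71 tested probes with its standard error as a bar, in 1 row for each of 41 genes grouped by role; red and blue points passed the threshold of 0.05 on the limma adjusted p and grey points did not. Changes in both directions stand side by side in nearly every group, from -1.26 for HSPA14 to 1.08 for DNAJB4.

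The heat shock factors were examined first. HSF1, the factor that switches on the heat shock response, had 1 probe, which ranged from 5.41 to 5.55 with a median of 5.48 on the control arrays. On the SRSF2-labelled arrays it ranged from 4.35 to 4.75 with a median of 4.49. The conditions did not overlap, and HSF1 fell by 0.93 ± 0.066 on the log2 scale (SE, n = 6 and 6, limma adjusted p = 1.14e-07). The difference was -1.09 within slide 1, -0.97 within slide 2 and -0.74 within slide 3.

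HSF2, a related factor that can form trimers with HSF1, had 2 probes. The brighter one ranged from -0.10 to 0.27 with a median of 0.08 on the control arrays and from 0.08 to 0.30 with a median of 0.19 on the others, and its log2 fold change of 0.11 ± 0.068 (SE) did not pass (limma adjusted p = 0.185). The dimmer one was well above background on 5 of 6 control arrays. It ranged from -3.95 to -3.58 on the control arrays, with a median of -3.76, and from -3.81 to -2.94 on the others, with a median of -3.36, so the conditions overlapped. Its log2 fold change was 0.38 ± 0.14 (SE, limma adjusted p = 0.033; 0.116 without slide 1 and 0.176 without slide 3), and under normexp background correction it was -0.15 (limma adjusted p = 0.861), so no direction is given for HSF2.

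Since HSF1 acts through heat shock elements, the promoters of the list were searched for them. RefSeq promoter windows of build GRCh38.p14, each running from 250 bases before a gene's start to 50 bases after it, were present for 41 of the 45 genes. An element of 3 units, GAANNTTCNNGAA or TTCNNGAANNTTC (N is any base, and the pair covers both strands), was present in the windows of 7 of these 41 genes: DNAJA1, DNAJB6, HSP90AA1, HSP90AB1, HSPA6, HSPA8 and HSPD1. Of all 27305 genes with a window, 0.608% had one. The shorter 2-unit forms GAANNTTC and TTCNNGAA, which every 3-unit element contains, were present for 21 of the 41 genes and for 16.2% of all genes. The stretches around the elements of 5 genes whose probes are described below are shown on the strand of the gene, with the 3-unit elements in capitals, while further 2-unit matches stay in lower case. Only exact matches were searched for, so an element with a changed base would be missed. HSPA1A, which has no exact match to a 3-unit form, is shown because its probes rose most among the heat-inducible HSP70 genes. Its 2-unit element is in capitals, at chr6:31815413-31815468 on the + strand. HSP90AA1 at chr14:102087096-102087156 on the - strand and HSP90AB1 at chr6:44247754-44247867 on the + strand are shown as the cytosolic HSP90 pair. HSPA8, whose probes moved both ways, has a pair of elements on the - strand, a first at chr11:123062155-123062215 near the gene's start and a second at chr11:123062330-123062386. HSPA6 at chr1:161524442-161524502 on the + strand is known to be nearly silent without stress.
HSPA1A: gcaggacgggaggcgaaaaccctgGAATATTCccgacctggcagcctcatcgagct
HSP90AA1: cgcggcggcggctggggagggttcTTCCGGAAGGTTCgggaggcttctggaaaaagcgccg
HSP90AB1: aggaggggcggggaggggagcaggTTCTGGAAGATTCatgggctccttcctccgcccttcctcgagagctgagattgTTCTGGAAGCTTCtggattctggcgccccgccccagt
HSPA8, first: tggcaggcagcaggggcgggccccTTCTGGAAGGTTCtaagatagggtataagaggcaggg
HSPA8, second: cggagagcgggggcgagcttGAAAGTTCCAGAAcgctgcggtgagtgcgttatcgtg
HSPA6: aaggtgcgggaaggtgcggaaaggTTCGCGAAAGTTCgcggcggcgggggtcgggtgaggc
The 7 genes with a 3-unit element had 20 tested probes, of which 6 rose, 6 fell and 8 did not pass, beside 29.7% higher and 28.0% lower among all probes. A match of letters is a description and not a binding site, and no binding was measured here.

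Among the HSP70 genes, 6 of 13 probes rose, 4 fell and 3 did not pass, beside 29.7% higher and 28.0% lower among all probes. HSPA1A, the main stress-inducible HSP70, had 3 probes, and all 3 rose without overlap of the conditions. The dimmest of them, A_24_P682285, ranged from 1.70 to 1.93 with a median of 1.73 on the control arrays and from 2.44 to 2.93 with a median of 2.56 on the others, a log2 fold change of 0.87 ± 0.084 (SE, n = 6 and 6, limma adjusted p = 1.88e-06). A_24_P123616 went from a range of 2.43 to 2.58, with a median of 2.49, to a range of 3.00 to 3.53, with a median of 3.24, a log2 fold change of 0.77 ± 0.089 (SE, limma adjusted p = 9.29e-06). The brightest probe, A_23_P111132, rose by 0.31 ± 0.049 (SE, limma adjusted p = 0.000135), from a median of 4.79 (4.70 to 4.81) to a median of 5.09 (4.96 to 5.17). The rise of the first 2 probes therefore exceeded that of the brightest one. HSPA1B, the near-identical neighbour gene that had no probe of its own, shares nearly all of its coding sequence with HSPA1A, so the probes could read both genes and their values are uncertain as values of HSPA1A alone.

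HSPA2, an HSP70 best known from the testis, rose with no overlap of the conditions. Its probe ranged from -0.60 to -0.31 with a median of -0.37 on the control arrays and from 0.07 to 0.66 with a median of 0.57 on the others. The log2 fold change was 0.85 ± 0.11 (SE, limma adjusted p = 3.17e-05).

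HSPA14, an HSP70 that binds the ribosome, showed the largest fall among the 71 probes. It ranged from 2.00 to 2.11 with a median of 2.05 on the control arrays and from 0.72 to 0.87 with a median of 0.80 on the SRSF2-labelled arrays. The gap between the conditions was far wider than the spread within either, and the log2 fold change was -1.26 ± 0.044 (SE, limma adjusted p = 3.91e-10), a 2.40-fold decrease. The partner of HSPA14 at the ribosome, the J-domain protein DNAJC2, is on the second list below and rose by 0.41 ± 0.061 (SE, limma adjusted p = 9.07e-05) on the log2 scale; it was named after its value was seen.

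HSPA8, the constitutive HSP70 that also uncoats clathrin vesicles, had 4 probes called in both directions. The 3 probes assigned to the longer transcript NM_006597 fell by 0.23 to 0.28 on the log2 scale, with limma adjusted p from 0.000532 to 0.00428, and 1 spot was missing through an outlier flag in each of 2 of them. A_24_P295745, assigned to the shorter transcript NM_153201, ranged from 3.82 to 3.98 with a median of 3.94 on the control arrays and from 4.09 to 4.23 with a median of 4.13 on the others. The conditions did not overlap, and this probe rose by 0.23 ± 0.048 (SE, limma adjusted p = 0.00126). With the 2 arrays of a slide averaged, its limma adjusted p was 0.0742, and 2 of the 3 falling probes did not pass either (0.0531 and 0.0724). Under normexp background correction none of the 4 passed, and the falling probe A_32_P13728 gave 0.11 (limma adjusted p = 0.801).

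The other HSP70 genes changed little. HSPA6, which is induced by strong stress, was near the lower end of the measured signals, with a median of -3.67 in the control condition and -3.40 in the other, and its log2 fold change of 0.18 ± 0.29 (SE) did not pass (limma adjusted p = 0.610). HSPA9, the mitochondrial HSP70, had a log2 fold change of -0.0075 ± 0.067 (SE, limma adjusted p = 0.933). HSPA13 rose at 1 of its 2 probes, by 0.17 ± 0.064 (SE, limma adjusted p = 0.041, but 0.193 without slide 1 and 0.328 without slide 3), though its sign was negative within slide 2 (-0.036) and the other probe did not pass. HSPA12A stood well above background on no array and HSPA1L on 1 control and 3 SRSF2-labelled arrays, so neither was tested.

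**Figure D2:**
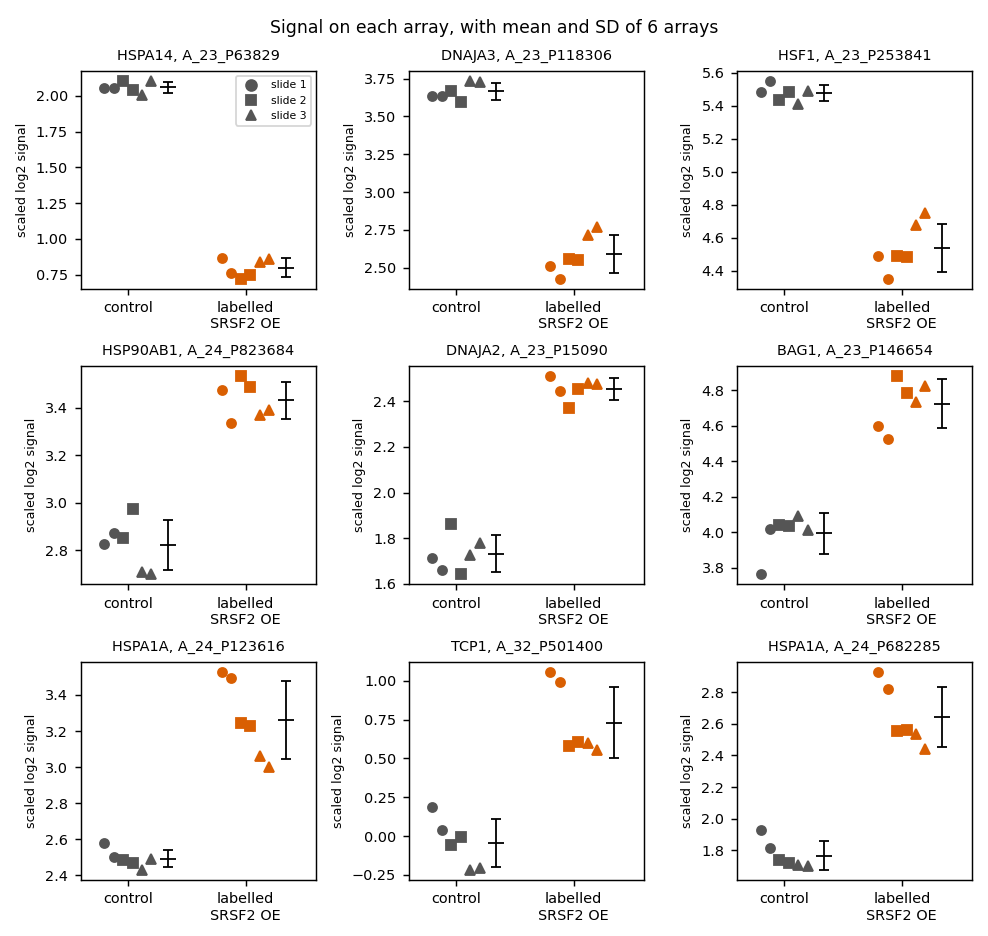
Scaled log2 signal (y axis) on each of the 12 arrays for the 9 probes that passed the threshold under every setting tried, with the slide given by the symbol and the mean and SD of 6 arrays as a bar. The conditions did not overlap in any panel: HSPA14, DNAJA3 and HSF1 were lower and the 6 other probes higher on the SRSF2-labelled arrays. The share of all probes that passed under every setting was not computed.

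The HSP110 proteins exchange nucleotides on HSP70 and hold unfolded clients. Of their 4 probes 3 rose and 1 fell, beside 29.7% higher and 28.0% lower among all probes. Both probes of HSPA4 rose, by 0.37 ± 0.043 (SE, limma adjusted p = 1.08e-05) and 0.27 ± 0.091 (SE, limma adjusted p = 0.023). Only the first was free of overlap between the conditions, and the second did not pass without slide 2 or slide 3 (limma adjusted p = 0.102 and 0.098). HSPH1 rose by 0.19 ± 0.069 (SE, limma adjusted p = 0.032) with overlapping arrays, and did not pass without slide 1 or slide 3 (limma adjusted p = 0.189 and 0.124). HSPA4L moved the other way. It ranged from -0.16 to 0.06 with a median of -0.09 on the control arrays. On the others it ranged from -0.73 to -0.35 with a median of -0.51. It fell by 0.47 ± 0.068 on the log2 scale (SE, limma adjusted p = 6.69e-05). With each array scaled on its spike-in controls, and under normexp background correction, it did not pass (limma adjusted p = 0.395 and 0.059).

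Of the 14 probes of J-domain proteins 8 rose, 3 fell and 3 did not pass, beside 29.7% higher and 28.0% lower among all probes. DNAJA2, a cytosolic co-chaperone of HSPA8, ranged from 1.64 to 1.86 with a median of 1.72 on the control arrays and from 2.37 to 2.51 with a median of 2.46 on the others. The log2 fold change was 0.72 ± 0.049 (SE, limma adjusted p = 7.99e-08). Its close relative DNAJA1 rose at both probes, by 0.41 and 0.30, and DNAJB1, the classical heat-inducible partner of HSP70, rose by 0.21 ± 0.041 (SE, limma adjusted p = 0.000831), in each case with no overlap.

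DNAJA3, which works with HSPA9 in mitochondria, fell. It ranged from 3.60 to 3.74 with a median of 3.65 on the control arrays and from 2.43 to 2.77 with a median of 2.56 on the others, so that the lowest control array was well above the highest of the other condition. The log2 fold change was -1.08 ± 0.062 (SE, limma adjusted p = 1.94e-08), a 2.11-fold decrease, while HSPA9 itself did not pass.

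DNAJB4, a relative of DNAJB1, had 2 dim probes that both rose. A_24_P393958 ranged from -3.72 to -3.21 with a median of -3.50 on the control arrays and from -2.73 to -2.08 with a median of -2.49 on the others, a log2 fold change of 1.08 ± 0.12 (SE, limma adjusted p = 9.4e-06). A_23_P51339, well above background on 5 of 6 control arrays, went from a median of -3.60 (-3.77 to -3.30) to a median of -2.73 (-3.09 to -2.05), a log2 fold change of 0.95 ± 0.18 (SE, limma adjusted p = 0.000643). Under normexp background correction the changes were 0.22 and 0.17 and did not pass (limma adjusted p = 0.749 and 0.824), so the size of this rise rests on how the background of dim spots was handled.

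The remaining J-domain genes gave smaller values. DNAJB5 rose by 0.25 ± 0.057 (SE, limma adjusted p = 0.00226). DNAJB2, which passes clients to the proteasome, had a dim probe, A_23_P209519, that ranged from -2.26 to -2.03 with a median of -2.16 on the control arrays and from -2.13 to -1.44 with a median of -1.54 on the others. It rose by 0.46 ± 0.12 (SE, limma adjusted p = 0.00618) with overlapping arrays, and the difference was 0.60, 0.67 and 0.12 within slides 1, 2 and 3. Without slide 1 or slide 2 it did not pass (limma adjusted p = 0.083 and 0.066). Under normexp background correction it gave 0.033 (limma adjusted p = 0.956). The brighter DNAJB2 probe gave 0.07 ± 0.080 (SE, limma adjusted p = 0.482). DNAJB6, a suppressor of protein aggregation, fell at 2 of its 4 probes, by 0.31 and 0.26, and the other 2 did not pass.

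The BAG proteins release clients from HSP70, and STUB1, also called CHIP, is the ubiquitin ligase that marks such clients for degradation. BAG1 ranged from 3.76 to 4.09 with a median of 4.03 on the control arrays and from 4.53 to 4.88 with a median of 4.76 on the others, a log2 fold change of 0.73 ± 0.074 (SE, limma adjusted p = 3.09e-06). BAG2, an inhibitor of STUB1, rose by 0.24 ± 0.053 (SE, limma adjusted p = 0.00167). STUB1 itself ranged from 4.35 to 4.68 with a median of 4.62 on the control arrays and from 3.90 to 4.13 with a median of 3.98 on the others, and fell by 0.58 ± 0.065 on the log2 scale (SE, limma adjusted p = 6.69e-06). BAG3, which links HSP70 to autophagy and is strongly heat-inducible, fell at its brighter probe by 0.36 ± 0.051 (SE, limma adjusted p = 4.99e-05), and its other probe gave -0.12 ± 0.077 (SE, limma adjusted p = 0.194). By their brightest probes BAG1 and BAG2 were thus up and BAG3 and STUB1 down, beside 30.5% higher and 30.2% lower among all genes. With spike-in scaling BAG2, BAG3 and STUB1 gave 0.45, -0.16 and -0.38 and did not pass (limma adjusted p = 0.139, 0.629 and 0.217). Under normexp background correction they did not pass either (limma adjusted p = 0.237, 0.244 and 0.205). With the 2 arrays of a slide averaged, BAG2 did not pass (limma adjusted p = 0.067).

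The cytosolic HSP90 pair consists of HSP90AA1, the inducible form, and HSP90AB1, the constitutive one. HSP90AB1 rose at 2 of its 3 probes. A_24_P823684 ranged from 2.70 to 2.98 with a median of 2.84 on the control arrays and from 3.33 to 3.53 with a median of 3.43 on the others, a log2 fold change of 0.61 ± 0.059 (SE, limma adjusted p = 1.94e-06). The brightest probe, A_23_P145089, rose by 0.34 ± 0.046 (SE, limma adjusted p = 3.31e-05), from a median of 4.87 (4.80 to 4.94) to a median of 5.21 (5.11 to 5.28). The remaining probe, A_24_P170295, had medians of 2.45 (2.10 to 2.58) and 2.33 (2.25 to 2.88) and did not pass (log2 fold change 0.10 ± 0.14, limma adjusted p = 0.552).

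HSP90AA1 gave no single answer. A_23_P162866 rose by 0.37 ± 0.046 (SE, limma adjusted p = 1.73e-05), from a median of 5.53 (5.49 to 5.63) to a median of 5.91 (5.85 to 6.02), without overlap. A_24_P145377 fell by 0.49 ± 0.12 on the log2 scale (SE, limma adjusted p = 0.0045), from a median of 5.21 (5.11 to 5.30) to a median of 4.54 (4.48 to 5.17). The fall was -0.69 and -0.67 within slides 1 and 3 and -0.11 within slide 2. Both SRSF2-labelled arrays of slide 2 lay below its control arrays, but 1 of them (5.17) lay above the lowest control array, on slide 3 (5.11). The fall did not pass without slide 1 or slide 3 (limma adjusted p = 0.083 and 0.069). A_23_P162874, with medians of 5.52 (5.44 to 5.87) and 5.19 (5.00 to 5.91), also had its own value on slide 2, with differences of -0.28, 0.05 and -0.49 within slides 1, 2 and 3. Its log2 fold change of -0.24 ± 0.17 (SE, limma adjusted p = 0.251) did not pass, although it did with the slide as a block (limma adjusted p = 0.015), with the replicate number as a block (0.044) and without slide 2 (0.000998). A_32_P199252 had medians of 2.69 (2.37 to 2.82) and 2.65 (2.18 to 2.97), with a log2 fold change of -0.020 ± 0.14 (SE, limma adjusted p = 0.917).

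TRAP1, the mitochondrial HSP90, ranged from 3.00 to 3.15 with a median of 3.05 on the control arrays and from 2.15 to 2.51 with a median of 2.32 on the others. It fell by 0.73 ± 0.067 on the log2 scale (SE, limma adjusted p = 1.16e-06) without overlap. With spike-in scaling and under normexp background correction it did not pass (limma adjusted p = 0.067 and 0.066). Together with DNAJA3, TRAP1 made 2 of the 5 mitochondrial genes of the list that fell, while HSPA9, HSPD1 and HSPE1 did not pass. Among all genes 30.2% were lower by their brightest probe, and so few genes do not set the mitochondrial chaperones apart.

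Among the HSP90 co-chaperones, 1 of 8 probes rose, 3 fell and 4 did not pass, beside 29.7% higher and 28.0% lower among all probes. AHSA1, which stimulates the ATPase of HSP90, rose by 0.35 ± 0.067 (SE, limma adjusted p = 0.000718). PTGES3, which stabilises the closed form of HSP90, fell at its brightest probe, A_32_P30813, from a median of 5.82 (5.62 to 5.99) to a median of 5.15 (4.96 to 5.22), by 0.70 ± 0.067 on the log2 scale (SE, limma adjusted p = 1.79e-06). A_32_P114896, also of PTGES3, fell by 0.47 ± 0.12 (SE, limma adjusted p = 0.00605), from a median of 0.73 (0.62 to 0.92) to a median of 0.17 (-0.0027 to 0.71). The conditions overlapped, and it did not pass without slide 3 (limma adjusted p = 0.088). Neither falling PTGES3 probe passed with spike-in scaling or under normexp background correction (limma adjusted p from 0.084 to 0.389). The other 2 PTGES3 probes did not pass. STIP1, which hands clients from HSP70 to HSP90, fell at 1 of 2 probes by 0.27 ± 0.062 (SE, limma adjusted p = 0.00238). That probe gave -0.062 with spike-in scaling (limma adjusted p = 0.858) and -0.12 under normexp background correction (limma adjusted p = 0.744). CDC37, which brings kinases to HSP90, gave 0.07 ± 0.054 (SE, limma adjusted p = 0.321).

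TRiC is the cytosolic chaperonin that folds actin and tubulin, and 5 of its subunits are on the list. Of their 8 probes 3 rose, 1 fell and 4 did not pass, beside 29.7% higher and 28.0% lower among all probes. All 3 rising probes were those of TCP1. The rise was not particular to TCP1, since the 3 TRiC subunits on the second list below also rose, by 0.20 to 0.36. A_32_P501400 of TCP1 went from a median of -0.03 (-0.22 to 0.19) to a median of 0.60 (0.56 to 1.06), a log2 fold change of 0.78 ± 0.11 (SE, limma adjusted p = 4.28e-05). A_32_P456537 went from a median of 1.28 (1.25 to 1.68) to a median of 1.87 (1.76 to 2.31), a log2 fold change of 0.58 ± 0.12 (SE, limma adjusted p = 0.00118). At both of these probes the conditions did not overlap. The brightest TCP1 probe rose by only 0.18 ± 0.058 (SE, limma adjusted p = 0.019), with overlap, and did not pass without slide 3 (limma adjusted p = 0.156). CCT3 fell by 0.24 ± 0.063 on the log2 scale (SE, limma adjusted p = 0.00532). With spike-in scaling CCT3 gave -0.038 (limma adjusted p = 0.916), and under normexp background correction -0.042 (limma adjusted p = 0.923). With the 2 arrays of a slide averaged, CCT3 did not pass (limma adjusted p = 0.083). CCT2, CCT4 and CCT5 did not pass, with log2 fold changes from -0.12 to 0.08.

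The mitochondrial chaperonin HSPD1 and its lid HSPE1 were among the brightest chaperones, with medians of 7.97 and 7.42 on the control arrays at their brightest probes. None of their 3 probes passed. The log2 fold changes were 0.10 and 0.24 for HSPD1 and -0.048 for HSPE1, with limma adjusted p of 0.271, 0.059 and 0.670. Of the small heat shock proteins, which hold unfolded proteins without ATP, HSPB1 fell at 1 of its 3 probes by 0.18 ± 0.050 on the log2 scale (SE, limma adjusted p = 0.00999, but 0.051 without slide 2 and 0.086 without slide 3; 1 array missing). The other 2 HSPB1 probes gave -0.15 and -0.11 and did not pass. CRYAB, a small heat shock protein of lens and muscle, was detected above background on 3 arrays of the control condition and 5 of the other, and gave 0.14 ± 0.11 (SE, limma adjusted p = 0.303). HSPB11 gave -0.014 ± 0.057 (SE, limma adjusted p = 0.851), and HSPB8 was well above background on no array.

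Since 18 of the 41 genes had more than 1 tested probe, the change of each probe was compared with the mean change of the other probes of its gene, in a limma fit over all genes with several probes that was chosen after the values were seen. The change of a probe differed from that of its gene's other probes for 16 of 48 chaperone probes, beside 40.6% of 8547 probes in all, so such differences were not particular to chaperones. HSP90AA1 A_23_P162866 exceeded the others by 0.62 ± 0.14 (SE, limma adjusted p = 0.00296) and A_24_P145377 fell short of them, with a difference of -0.53 ± 0.080 (SE, limma adjusted p = 0.00018). HSPA8 A_24_P295745 exceeded the probes of the longer transcript by 0.49 ± 0.057 (SE, limma adjusted p = 2.24e-05). The brightest probes of HSPA1A and TCP1 fell short of the others of their genes, with differences of -0.51 ± 0.082 (SE, limma adjusted p = 0.000294) and -0.50 ± 0.14 (SE, limma adjusted p = 0.013). Calls in both directions within a gene were found for HSP90AA1 and HSPA8, and for 358 of 3741 genes with several tested probes (9.57%). The files give no probe sequence, so which exon each probe reads is not given here.

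**Figure D3:**
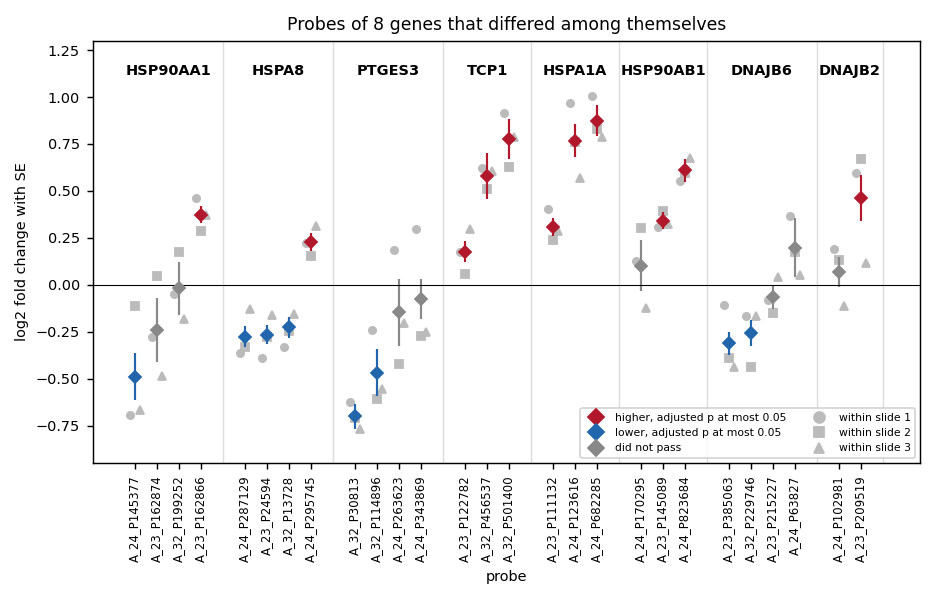
Log2 fold change of each tested probe (diamond with SE, n = 6 and 6 arrays) of the 8 genes with at least 1 probe whose change differed from that of the gene's other probes, with the difference within each of the 3 slides in grey. HSP90AA1 and HSPA8 have a red and a blue diamond, and the grey square of slide 2 lies apart from those of slides 1 and 3 for A_24_P145377 of HSP90AA1.

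The list holds genes that are raised by heat in many cell types and genes that are not, a division made from general knowledge. Among 16 heat-inducible genes tested, 7 rose (HSPA1A, HSP90AA1, HSPH1, DNAJA1, DNAJB1, DNAJB4 and AHSA1), 4 fell (HSPA8, HSPA4L, BAG3 and STIP1) and 5 did not pass, with a median log2 fold change of 0.16. Of the 25 other genes 9 rose, 8 fell and 8 did not pass, with a median of 0.065, beside 30.5% higher and 30.2% lower among all 11592 genes and a median of -0.0040. HSP90AA1 and HSPA8 are counted here by their brightest probes alone. HSPA8, called the constitutive HSP70 above, was placed with the heat-inducible genes in this division.

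A second list of 48 further chaperones and co-chaperones, of which 38 had a tested probe, covered the rest of the pathway. With the brightest probe for each gene, 18 rose, 6 fell and 14 did not pass, beside the same 30.5% higher and 30.2% lower among all genes, and the median log2 fold change was 0.18. The 3 further TRiC subunits CCT6A, CCT7 and CCT8 rose by 0.20 to 0.36, and 4 of 6 subunits of prefoldin, which delivers clients to TRiC, rose as well. The largest rises were those of the mitochondrial nucleotide exchange factor GRPEL2 (1.84 ± 0.073), of HSPBAP1, which binds HSPB1 (1.28 ± 0.052), and of BAG4 (0.94 ± 0.18), each as a log2 fold change with SE, with limma adjusted p from 9.66e-10 to 0.000683. The less bright GRPEL2 probe rose by only 0.40 ± 0.061 (SE, limma adjusted p = 0.000114), so the size of the GRPEL2 rise differed between its probes. The largest falls were those of the J-domain proteins DNAJC21 (-0.92 ± 0.13) and DNAJC9 (-0.83 ± 0.062) and of the heat shock factor HSF4 (-0.50 ± 0.079), with limma adjusted p from 1.94e-07 to 0.000146. The last 3 are known for ribosome maturation, for histone supply and for the lens.

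The share of chaperone probes past the threshold moved with the processing, and so did the share of all probes. It ranged from 14.1% under normexp background correction to 74.6% with the slide as a block, beside 11.6% and 70.1% of all probes. With each array scaled on its spike-in controls, the median log2 fold change was 0.215 over all probes and 0.306 over the chaperone probes. Of the 71 chaperone probes 14 then passed as higher and 3 as lower, beside 4970 and 1515 of all 24331 probes. With spike-in scaling and slide 1 left out, the medians were only 0.018 over all probes and 0.103 over the chaperone probes. The upward shift under spike-in scaling was thus not seen without slide 1. Under all 19 settings, 9 probes of 8 genes passed in the same direction: HSF1, HSPA14 and DNAJA3 as lower, and HSPA1A (2 probes), HSP90AB1, DNAJA2, BAG1 and TCP1 (1 probe each) as higher. Each of the other 36 probes called lost its call in at least 1 setting, and 9 of them did so when a slide was left out. The share of all probes that passed under every setting was not computed, so none stands beside these counts. Under the spike-in scaling the falling HSPB1 probe gave 0.06 (limma adjusted p = 0.883).

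**Figure D4:**
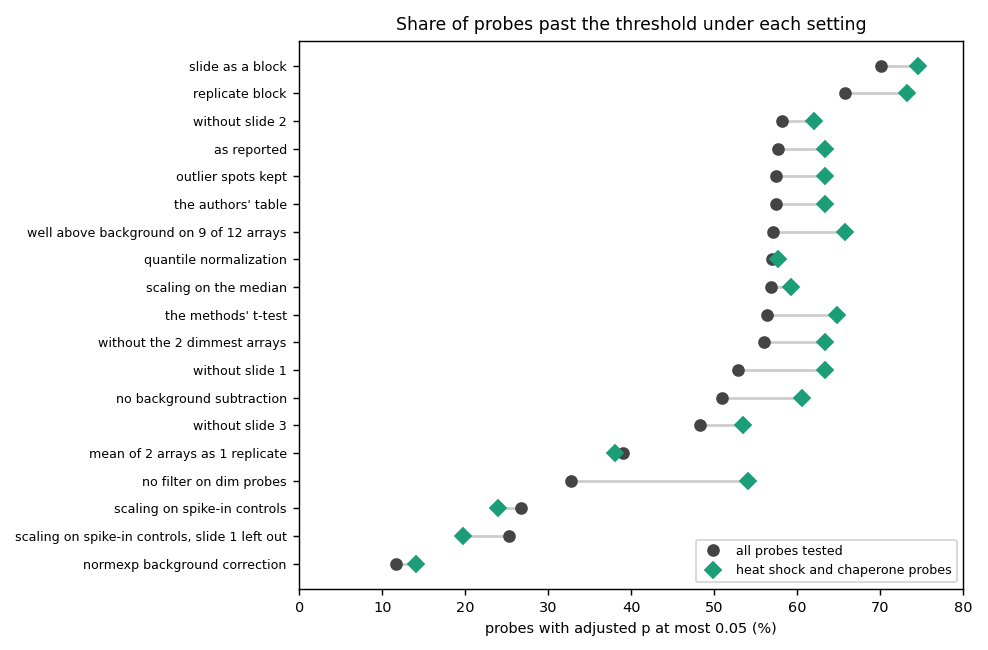
Share of probes (x axis, in %) that passed the threshold of 0.05 on the limma adjusted p under each of the 19 settings (y axis), for the heat shock and chaperone probes (green diamonds) and for all probes tested (grey circles). The chaperone share moved with that of all probes, and the widest gap was without a filter on dim probes, where 54.1% of 74 chaperone probes and 32.7% of all probes passed. That setting raised all probes tested from 24331 to 40997 but chaperone probes only from 71 to 74, so the 2 shares there are not alike in dim probes.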

How the data were processed

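RNA of the H358/Tet-On/SRSF2 clone, on 6 arrays a condition, had been hybridised to one-colour Agilent 44 k arrays. The authors deposited scanner files made with Feature Extraction (version 10.7.3.1 in the submitters' processing notes), which hold the processed intensity of each spot after background subtraction. The authors' own log2 table, also deposited, served only as an alternative. It correlated at 0.99896 or more per array with the values used here, with each probe centred across arrays.

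Spots with outlier flags and control spots were left out, log2 values of repeated spots were averaged, and each array was scaled by subtracting its 75th percentile over gene probes. Of 41000 gene probes, 24331 were kept. A kept probe was well above background on 5 or 6 arrays of either condition, with no more than 25% of its arrays missing. The comparison used limma 3.58.1 (lmFit and eBayes, R 4.3.3) with no covariates and Benjamini-Hochberg adjustment over all probes kept. Accessions were matched to the RefSeq gene table of GRCh38.p14, which gave a symbol to 23958 of 25868 probes carrying one. No spot was saturated, and the number of arrays limits the precision. On simulated data of this comparison over 23740 probes, 89 of 100 probes changed by 1 on the log2 scale and 57 of 100 changed by 0.5 were recovered, with 8 false calls. The simulated arrays were drawn independently, and only these probes were changed. In the measured data 57.7% of all probes passed and arrays of a slide correlated, so these rates need not hold there.

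The genes listed and named were chosen with earlier results of these data known. Values on each array are given for the heat shock factors, for HSPA1A and the HSP90 pair, and for the 20 called probes with the largest change. Of the second list, up to 3 of the largest rises and falls past the threshold are named. Arrays with the same replicate number lay on the same slide, and their deviations from the condition means correlated at 0.277 to 0.639, beside 0.327 to 0.655 for other numbers on the same slide and -0.477 to -0.047 across slides, so the numbers pair the arrays through the slide. Alternatives comprised the scaling, the background correction, the filters, the test, blocks for slide and replicate number, and slides left out. A local background correction used the median signal of each spot, with normexp at an offset of 50.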

Additional observations from a re-analysis of the deposited data

Results flagged for a closer look

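The 6 arrays of each condition were examined for a single array far from the rest, for the 28 named probes and the SRSF2 probe, which makes 58 groups, of which 2 stood out. Chance alone gives such a gap in about 1 in 20 groups. The BAG1 probe was 3.76 on control replicate 1, and the nearest other control array was at 4.01, a gap of 0.77 of the range of the 6 arrays. The STUB1 probe was 4.35 on control replicate 2, and the nearest other control array was at 4.57, a gap of 0.66 of the range. Both arrays lie on slide 1, and the difference within that slide was 0.67 for BAG1 and -0.49 for STUB1, beside 0.79 and 0.73 for BAG1 and -0.52 and -0.74 for STUB1 within slides 2 and 3.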

How the results depend on the processing

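The number of chaperone probes past the threshold, 27 higher and 18 lower, fell with the spike-in scaling to 14 and 3 (genes 5 and 3, second list 10 and 2), with normexp to 7 and 3 (genes 3 and 3, second list 5 and 2), and with the 2 arrays of a slide averaged to 17 and 10 (genes 9 higher, second list 10 higher). With spike-in scaling and slide 1 left out, a setting added after seeing the data, it was 8 and 6 (genes 3 and 6, second list 5 higher). Of all 24331 probes, 4970 were higher and 1515 lower with the spike-in scaling, and 1410 and 1409 with normexp. The counts were 4815 and 4678 with averaging, and 2964 and 3190 with spike-in scaling and slide 1 left out. A threshold of 2-fold left 1 and 2 chaperone probes, and 1.5-fold left 9 and 5. The replicate block gave 52 probes and the slide as a block 53 of 71. Leaving out slide 1, 2 or 3 gave 45, 44 and 38. Without control replicate 3 and SRSF2 over-expression replicate 4, which had the fewest spots well above background, 45 passed. Of 504 values of the 28 named probes under 18 alternatives, 450 kept direction and call, 45 lost and 3 gained the call, and 6 changed sign: HSP90AA1 A_32_P199252, not called in any of them, gave 0.0092 with quantile normalization, 0.18 with spike-in scaling, 0.081 with normexp, 0.062 without slide 3 (-0.12 to 0.062 over the slides left out) and 0.0088 with spike-in scaling without slide 1, and HSF2 A_23_P111360 gave -0.15 with normexp. The cause was not tested. The weak probes of HSPA6, CRYAB, DNAJB4, DNAJB2 (A_23_P209519) and HSF2 lie near the background, so their changes are the least certain.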
